A study of Homo sapiens with 4 samples.

Results

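ES7L is the long GC-rich insertion near the 5′ end of human 28S rRNA, the RNA of the large ribosomal subunit. It was taken here as positions 436 to 1311 of 28S, which are positions 8368 to 9243 of the 47S pre-rRNA in the deposited coordinates. The segment has 375 C, 353 G, 88 T and 60 A, out of 13780 nt of the whole 47S pre-rRNA and 5070 nt of 28S, and it covers 6.36% of the 47S length. Its GC content was 83.1%, against 66.6% in the rest of 28S and 44% and 65% in the 100 nt on its 5′ and 3′ sides, so the description as GC-rich holds for these borders. The reference of the deposited files is not given in the sources used here, and rDNA lies in tandem arrays, so no chromosome position is stated.

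Expansion segments are insertions in the conserved rRNA core that differ in length between eukaryotes. ES7L is among the longest in human 28S and forms GC-rich helices on the surface of the large subunit. The protein studied, NKRF (NF-kappa-B-repressing factor), has a G-patch, a domain by which cofactors stimulate RNA helicases. The title of the series links it to the helicase DHX15 and to XRN2, an exonuclease that trims RNA from the 5′ end. ES7L is part of both pre-rRNA and mature 28S, and a read within it cannot be assigned to either.

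The 4 libraries came from the human kidney-derived line HEK293, in its Flp-In T-REx form, after 24 h of tetracycline. The NKRF line carried NKRF fused to Flag and His tags, and the control line carried only the tags, called the tag alone here. Cells were irradiated at 254 nm (UV), or at 365 nm after 6 h in 100 µM 4-thiouridine, a uridine analogue built into new RNA (PAR). RNA crosslinked to the tagged protein was purified, trimmed and sequenced as cDNA (CRAC, crosslinking and analysis of cDNA). Each of the 4 groups had 1 library, so every difference given here lacks a check by replicates, and samples could not be tested against each other. The 2 crosslinking modes are different treatments and not replicates. Intervals are 95% intervals and cover counting error only. How reads amplified by PCR were handled is not given in the sources used here, so copies may have been counted as separate reads.

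Coverage is given in normalised hits, the number of reads over a nucleotide per 1000000 reads of the library. The value of 1 read, recovered from the spacing of the rounded values, was 0.920 normalised hits for NKRF UV, 1.19 for tag UV, 4.43 for NKRF PAR and 8.91 for tag PAR. The least numbers of reads that give the ES7L profiles were 13736, 896, 4111 and 10.1 in that order. The tag PAR profile is therefore very thin: 661 nt of ES7L had no coverage and none had more than 18 normalised hits, or 2.02 reads.

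The coverage with NKRF gathered in a few stretches of ES7L, shown here with their sequences because the NKRF summits described first and the T with the most substituted hits lie in them. Each stretch is the part around a summit where coverage was at least 50% of the summit. The stretches were thus chosen where an NKRF library was high. Their ratios to the tag may be raised by that choice, which the counting intervals do not cover. They are written 5′ to 3′ as in the deposited files, with T for U. Capitals mark T that was substituted in at least 50% of the NKRF PAR coverage.

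28S 524 to 581, highest in NKRF PAR: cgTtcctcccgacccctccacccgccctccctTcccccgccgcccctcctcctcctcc
28S 767 to 807, high in both NKRF libraries: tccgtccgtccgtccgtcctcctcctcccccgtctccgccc
28S 818 to 853, highest in NKRF UV: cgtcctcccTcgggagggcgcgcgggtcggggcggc
28S 1125 to 1238, the 3′ peak in NKRF UV: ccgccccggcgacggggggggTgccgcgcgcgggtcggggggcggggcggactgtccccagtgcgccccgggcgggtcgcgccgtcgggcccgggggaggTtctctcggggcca

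The first and the second of these are pyrimidine tracts, with 87.9% and 85.4% C or T. The second holds CCGT repeats followed by CCT repeats. The others are mixed, with 47.2% and 44.7% pyrimidine, and the third runs into a GGC repeat.

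ES7L was recovered far more with NKRF than with the tag alone in both crosslinking modes. Mean coverage was 868 normalised hits in NKRF UV and 49.7 in tag UV, and 893 in NKRF PAR and 2.94 in tag PAR. After UV, ES7L took 6.44% of all 47S coverage in the NKRF library and 0.886% in the tag library, 7.26-fold more (6.79 to 7.78). After PAR it took 19.5% and 0.764%, 25.5-fold more (13.9 to 53.0), with 10.1 reads behind the tag value. With NKRF the segment was thus close to its share of length in UV, at 1.01 times the 47S mean, and 3.07 times the mean in PAR, while the tag libraries stood at 0.139 and 0.12 times their means.

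The size of these ratios depended on the scale, and 18S took 82.2% and 68.3% of the tag 47S coverage. As a share of the coverage outside 18S the ratios were 2.23 in UV and 8.44 in PAR. As a share of 28S coverage they were 2.30 and 11, and relative to all reads of the library 17.5 and 304. ES7L held 15.4% of the 28S coverage with NKRF in UV and 43.6% in PAR.

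The rest of 28S was raised less, 2.87-fold (2.81 to 2.92) in UV and 1.36-fold (1.18 to 1.57) in PAR. The ES7L ratio exceeded it 2.53-fold in UV (2.36 to 2.72) and 18.8-fold in PAR (9.97 to 35.4). The sequence just outside ES7L had smaller ratios where a ratio could be taken. The 100 nt before ES7L had means of 182 normalised hits in NKRF UV and 44.2 in tag UV, 1.72-fold more of the 47S coverage (1.48 to 2.0). In NKRF PAR and tag PAR their means were 29.7 and 0, which gives no ratio. The 100 nt after it were 1.21-fold higher in UV (1.08 to 1.37), and in PAR their ratio was 0.997 (0.328 to 4.91), on 3.03 tag reads.

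Base content moved with this difference in some comparisons of regions and not in others. The transcribed spacers had 80.0% GC, near that of ES7L. They were 3.88-fold higher with NKRF in UV (3.77 to 4.00) and 4.40-fold in PAR (3.77 to 5.17), less than ES7L in both modes. The other parts of 28S with a local GC content as high as in most of ES7L (at least 80.2% in the surrounding sequence) came to 995 nt, nearly all in 28S 2098 to 2254, 2931 to 3579 and 4759 to 4896. They are called GC-matched here, but they had 86.8% GC, and ES7L, taken whole without this limit, had 83.1%. They were 7.48-fold higher with NKRF in UV (7.18 to 7.78) and 12.2-fold higher in PAR (8.32 to 18.6). Set against them, the ES7L ratio was 0.971 times as large in UV (0.898 to 1.05) and 2.09 times in PAR (1.01 to 4.33). In UV the counting interval of that comparison held 1, and in PAR it began just above 1. Across windows, the Spearman correlation of GC content with the UV log2 ratio was 0.65 over the 18 windows of ES7L and 0.60 over 83 windows of the rest of 28S. With the PAR log2 ratio it was 0.21 in ES7L and 0.61 over 74 windows of the rest of 28S. These windows share libraries and depth, and the part of GC content in the ratios was not tested.

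**Figure D1:**
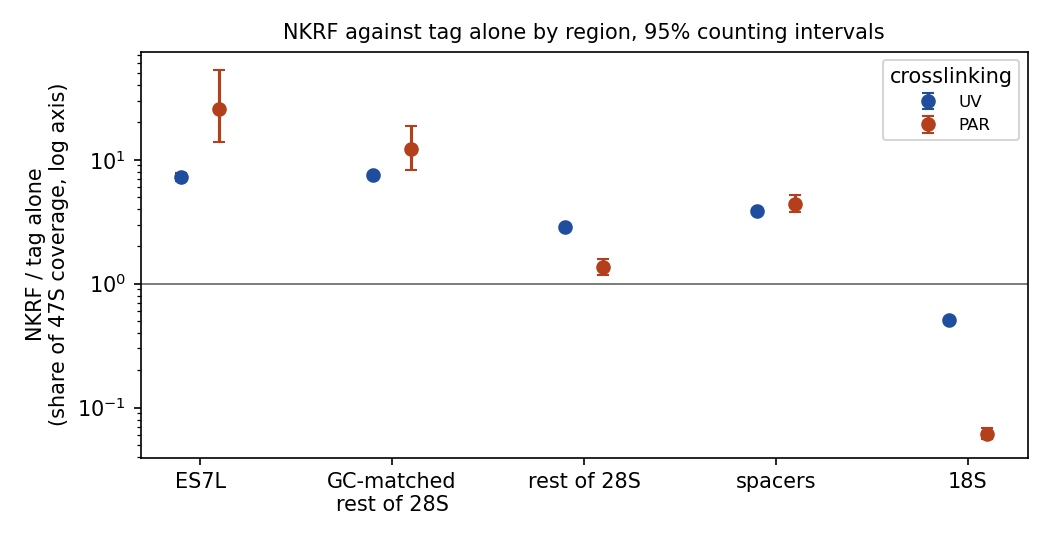
Ratio of the share of 47S coverage with NKRF to that with the tag alone, on a log axis, for ES7L, the GC-matched rest of 28S, all of the rest of 28S, the transcribed spacers and 18S. Points are single library pairs (UV blue, PAR red) and bars are 95% counting intervals. ES7L lies at 7.26 and 25.5, beside 7.48 and 12.2 for the GC-matched rest of 28S, and 18S lies below 1 at 0.513 and 0.0614.

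For a finer view, 18 windows of 50 nt were laid over ES7L, of which the 3′ one had 26 nt. Shares of 47S coverage were taken after adding 1 normalised hit, and a window counted as higher with NKRF at 2-fold or more over the tag, and as lower in the opposite case. In UV all 18 windows were called higher, where 62.7% of 252 examined windows of the 47S and 49.4% of 83 windows of the rest of 28S were. None was called lower, against 6.35% over the 47S. In PAR 15 of 18 were called higher and 0 lower, against 45.2% and 33.6% of 241 examined 47S windows. The median log2 ratio of the ES7L windows was 2.60 in UV and 4.27 in PAR, beside 1.65 and 0.50 over all examined windows.

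The UV calls had reads behind them: the counting interval lay above 1 in all 18 windows. They hold for shares of 47S coverage. As a share of the coverage outside 18S, the UV ratio of all of ES7L was 2.23 in place of 7.26. Windows were not called on that scale, where those with the smallest ratios may not be higher. The PAR calls rested on few tag reads. In 9 of the 15 windows the tag coverage was 0, and a floor of 3 tag reads spanning the window gave a lower bound of at least 2-fold in only 2 of them, 28S 536 to 585 and 786 to 835. Of the other 6 windows, the interval lay above 1 in 5. With a pseudocount of 10 normalised hits, 10 PAR windows were called higher and 1 lower. The 15 windows called in PAR were also called in UV.

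**Figure D2:**
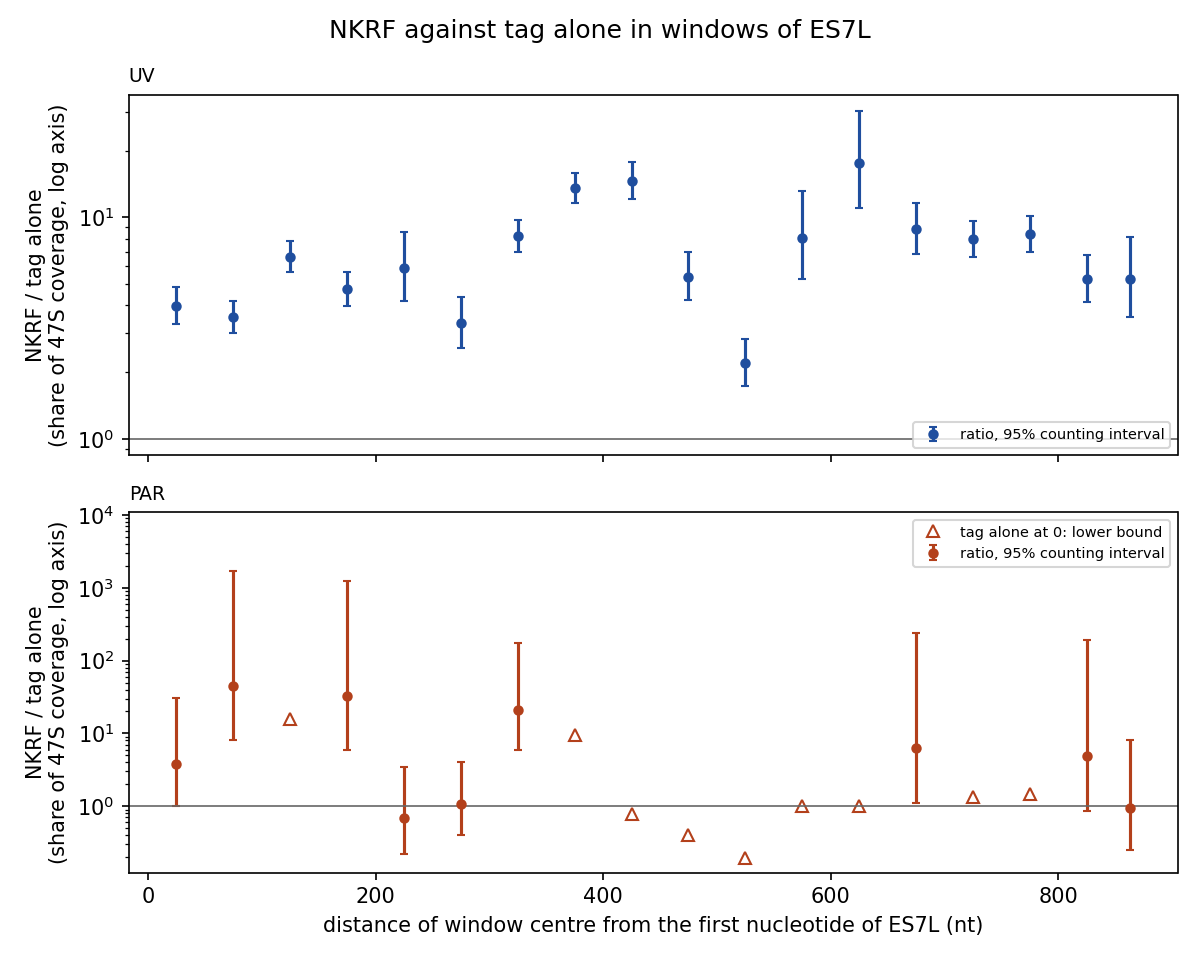
NKRF over tag alone in the windows of ES7L, as shares of 47S coverage on a log axis, for UV (top) and PAR (bottom), by the distance of the window's centre from the first nucleotide of ES7L. Points have 95% counting intervals, and open triangles are lower bounds where tag coverage was 0. All 18 UV intervals lie above 1, with ratios from 2.2 to 17.6, and the PAR windows at 28S 536 to 585 and 786 to 835 are at least 16 and 9.41.

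In the NKRF PAR library the 5′ pyrimidine tract was the highest point of ES7L. Mean coverage of the window 28S 536 to 585 was 5083 normalised hits in NKRF PAR and 0 in tag PAR, at least 16-fold more, and 1193 in NKRF UV and 74.8 in tag UV, 6.63-fold more (5.67 to 7.81). It was the highest of all 276 windows of the 47S in NKRF PAR. The summit lay at position 556, a T, with 7501 normalised hits in NKRF PAR, 0 in tag PAR, 1232 in NKRF UV and 52 in tag UV. Coverage climbed from 4171 at position 550 to 7501 at position 556. The neighbouring window 486 to 535 had 1734 in NKRF PAR and 3.24 in tag PAR, 44.9-fold more (8.10 to 1722), and 824 and 96.6 in UV, 3.55-fold more (3.01 to 4.20). The tract from 524 to 581 alone held 37.9% of the ES7L coverage of NKRF PAR but 8.22% of that of NKRF UV and 10.5% of that of tag UV.

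The NKRF UV library had its nearest summit 33 nt downstream, at position 589, a G in the purine run after the tract. Coverage there was 1763 normalised hits in NKRF UV, 140 in tag UV, 2201 in NKRF PAR and 0 in tag PAR. The tag UV profile had its own maximum in ES7L at the same place, 140 at positions 588 and 589. The window 586 to 635 had means of 744 in NKRF UV and 65.5 in tag UV, 4.73-fold more (3.96 to 5.68), and of 558 in NKRF PAR and 1.44 in tag PAR, 32.6-fold more (5.86 to 1249).

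The CCGT and CCT repeat was high with NKRF in both modes, with summits 2 nt apart, at position 788 in UV and 786 in PAR. At 788, coverage was 3280 normalised hits in NKRF UV and 116 in tag UV. At 786 it was 6354 in NKRF PAR and 0 in tag PAR. The stretch 767 to 807 had a mean of 2683 in NKRF UV and 99.4 in tag UV, 11.2-fold more (9.30 to 13.7), and of 5035 in NKRF PAR and 0 in tag PAR, at least 15.8-fold more. Its borders were set by NKRF PAR coverage, so these ratios describe a chosen stretch, as do those of the other stretches. It held 14.5% of the ES7L coverage in NKRF UV, 9.36% in tag UV and 26.4% in NKRF PAR. The repeat is thus the part of ES7L on which the 2 NKRF libraries placed summits together. How reads in such repeats were placed when they match several sites is not given in the sources used here, and its part in the heights was not tested.

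The highest NKRF UV peak stood just 3′ of the repeat, on a G-rich stretch. At its summit, position 839, coverage was 4410 normalised hits in NKRF UV, 120 in tag UV, 602 in NKRF PAR and 0 in tag PAR. From 818 to 853 the mean was 3501 in NKRF UV and 94.8 in tag UV, 15.4-fold more (12.8 to 18.7), and 703 and 0 in PAR, at least 2.21-fold more. Its 5′ border is set by a dip at position 817, where NKRF UV coverage was 2082, between 2331 at 816 and 2351 at 818. The stretch around the NKRF UV summit at 788, taken by the same rule, ran from 769 to 855 and enclosed it. The stretch from 818 to 853 took 16.6% of the ES7L coverage in NKRF UV and 3.23% in NKRF PAR. It has 4 T in 36 nt, where the repeat before it has 10 in 41 nt. Over the 18 windows the number of T correlated with NKRF PAR coverage at a Spearman value of 0.64 and with NKRF UV coverage at 0.40, as a description of windows that share libraries. For tag UV it was 0.68. Over the 83 windows of the rest of 28S the values were -0.15 for NKRF PAR, -0.06 for NKRF UV and 0.28 for tag UV.

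A broad 3′ peak, from 1125 to 1238 in NKRF UV, took a larger part of the ES7L coverage in the UV libraries than in NKRF PAR. Its means were 1411 normalised hits in NKRF UV and 72.9 in tag UV, 8.05-fold more (6.98 to 9.34). In NKRF PAR the mean was 424, and in tag PAR 1.01 reads touched its edge. It held 21.2% of the ES7L coverage in NKRF UV, 19.1% in tag UV and 6.18% in NKRF PAR. Its windows 1136 to 1185 and 1186 to 1235 had 1373 and 1546 normalised hits in NKRF UV, 71.8 and 76.6 in tag UV, and 424 and 466 in NKRF PAR, with ratios in UV of 7.95 (6.62 to 9.61) and 8.39 (7.0 to 10.1). Among the 276 windows of the 47S they ranked 51 and 42 in NKRF UV, and 38 and 37 in NKRF PAR. The peak was thus not low in NKRF PAR on the scale of the 47S.

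Between these peaks, 28S 856 to 1124 was below the ES7L mean in every library. Its means were 361, 21.6, 215 and 0.770 normalised hits for NKRF UV, tag UV, NKRF PAR and tag PAR. It was still 6.96-fold higher with NKRF in UV (6.01 to 8.09). Among the 276 windows of the 47S in NKRF PAR, 886 to 935 ranked 110 and 936 to 985 ranked 176. Windows 986 to 1035 and 1036 to 1085 ranked 54 and 52, so they were not low on that scale. The largest UV window ratio of ES7L lay here and not in a peak: window 1036 to 1085 had 404 in NKRF UV and 9.52 in tag UV, 17.6-fold more (11 to 30.1), on 17.7 tag reads. Next were 836 to 885, with 1697 and 48.4 and at 14.6-fold (12.1 to 17.7), and 786 to 835, at 13.5-fold (11.6 to 15.8), which carry the NKRF UV maximum. The smallest UV ratios were 2.2 (1.74 to 2.83) at 936 to 985, 3.32 (2.57 to 4.36) at 686 to 735 and 3.55 at 486 to 535. In PAR the smallest were 0.694 (0.223 to 3.45) at 636 to 685, 0.956 (0.248 to 8.06) at 1286 to 1311 and 1.07 (0.398 to 4.00) at 686 to 735, all with intervals across 1. NKRF PAR coverage was 0 at position 624 and from 1266 to 1285, the only uncovered nucleotides of ES7L in that library.

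**Figure D3:**
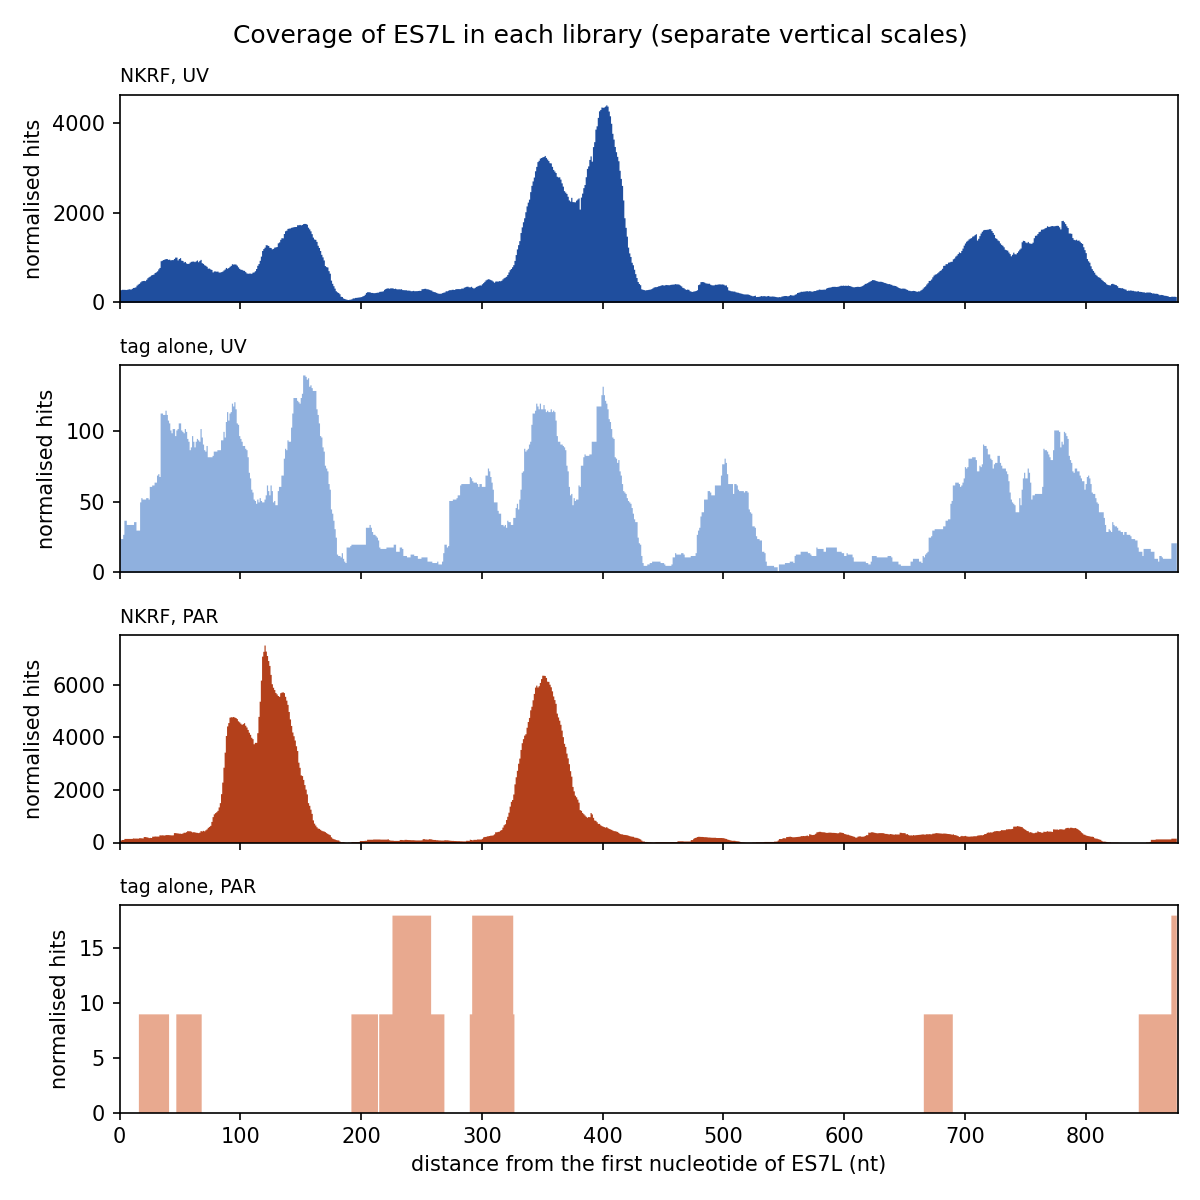
Coverage of ES7L in normalised hits in each of the 4 libraries, by distance from its first nucleotide, with a separate vertical scale for each panel. The NKRF UV profile has 4 peaks with its maximum of 4410, NKRF PAR has 2 peaks with a maximum of 7501, tag UV is spread over many low peaks of at most 140, and tag PAR consists of single reads of at most 18.

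The NKRF PAR coverage was more concentrated than the others with depth. Its 3 highest windows, 536 to 585, 786 to 835 and 736 to 785, held 67.1% of its ES7L coverage. The 3 highest windows of NKRF UV, 786 to 835, 836 to 885 and 1186 to 1235, held 40.6%, and those of tag UV 30.3%. The window 736 to 785, with the start of the CCGT repeat, had 2421 normalised hits in NKRF PAR, 9.54 in tag PAR, 1314 in NKRF UV and 66.4 in tag UV. It was 21.3-fold higher in PAR (5.92 to 173) and 8.23-fold higher in UV (6.98 to 9.76). Despite the difference in level, the tag UV profile had a similar order of windows to NKRF UV, with a Spearman correlation of 0.78 over 18 windows. The correlation was 0.74 for NKRF UV and NKRF PAR, and 0.64 for tag UV and NKRF PAR. Neighbouring windows share reads and all libraries share the sequence, so these values are descriptions only. The tag UV profile had 9 low summits, of 74 to 140 normalised hits, and those at 588, 784, 836 and 1211 lay within 6 nt of NKRF UV summits. The 7 plateaus of tag PAR were 9 or 18 normalised hits high, 1 or 2 reads.

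Changed bases in PAR reads mark where 4-thiouridine was crosslinked, because the enzyme that copies RNA often misreads such a base. In NKRF PAR 17.9% of the coverage at T of ES7L was substituted (17.5 to 18.4). The deposited values hold no substitution at A, C or G anywhere in the 47S of this library, where the UV libraries do, so a share at these bases cannot be read from them. The rest of 28S had 18.8% and the spacers 21%. Substituted bases numbered 5445 reads, or 1.32 for each of the 4111 reads that are the least to give the profile. A share at 1 T therefore depends on the other T under the same reads and is no crosslinking efficiency. ES7L held 18.8% of the substituted hits of the 47S and 20.2% of its NKRF PAR coverage at T, on 4.15% of its T.

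Within ES7L the substitutions were uneven. Of 85 T with at least 10 reads, 13 were substituted in at least 50% of the coverage, or 15.3%, where 8.29% of 1507 such T of the 47S were. The median was 18.4% and the range 0 to 77.4%, and 3 of the 85 had no substitution. The highest 5 T held 52.8% of the substituted hits of ES7L, and the highest 10 held 65.9%.

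The PAR summit tract had a pair of dominant T. Position 556 was substituted in 68.6% of 1694 reads (66.3 to 70.8) and position 526 in 74.3% of 1029 reads (71.6 to 77.0). Together they carried 35.4% of the substituted hits of ES7L. The other 9 T of the tract, under the same peak, had between 0.720% and 12.3%. These include the T of the CCT repeat, at 2.56%, 0.720%, 1.69% and 2.0% for positions 570, 573, 576 and 579. Position 555, next to 556, had 3.36%. In NKRF UV the substituted share was 6.49% at 556 and 3.73% at 526, with 7.69% and 4.63% in tag UV at a coverage of 52 and 108 normalised hits.

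The CCGT repeat had no such dominant T. Its T at positions 767, 771, 775, 779 and 783 were substituted in 22.9%, 15.1%, 19.1%, 25.3% and 31.4% of the reads, on 724 to 1345 reads. The 3 T of the CCT repeat after it, at 786, 789 and 792, had 8.99%, 4.66% and 10.2%. The T at 799 and 801, further 3′ in the same stretch, had 6.50% and 8.49%. Over ES7L the median was 11.6% for the 30 T between C and C with at least 10 reads, 17.7% for 22 between G and C, 36.3% for 11 between G and G, and 42.7% for only 2 between C and G. This split was made after the values were seen.

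Several T with a high share lay outside the tracts, under lower coverage. Position 606 (28S 596 to 616, ctccggcgggTgcgggggtgg) was substituted in 77.4% of 93 reads (67.6 to 85.4), the highest of ES7L. Position 1146 (28S 1136 to 1156, acggggggggTgccgcgcgcg) had 63.4% of 63 reads (50.4 to 75.3). Position 1225, in the 3′ peak, had 67.9% of 128 reads (59.1 to 75.9). Also at 50% or more were 827, at 56.7% (50.3 to 63.0) of 245 reads between C and C, and 1102, at 61.1% (48.9 to 72.4) of 72 reads. A further 5 T at 50% or more, at 445, 653, 868, 980 and 982, had only 13 to 35 reads. The T at 606 and 1225 were also often misread after UV, in 17.4% and 11.2% of NKRF UV coverage, and in 10.5% and 16.7% of tag UV coverage.

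A minimum free energy structure predicted with RNAfold from the sequence of ES7L alone paired 76.5% of its nucleotides and 47.7% of its T. The median substituted share in NKRF PAR was 23.8% for 45 unpaired T and 13.6% for 40 paired T with at least 10 reads. Of the 13 T at 50% or more, 3 were paired in the prediction. The structure is a prediction without proteins or the rest of 28S, and these values are a description.

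**Figure D4:**
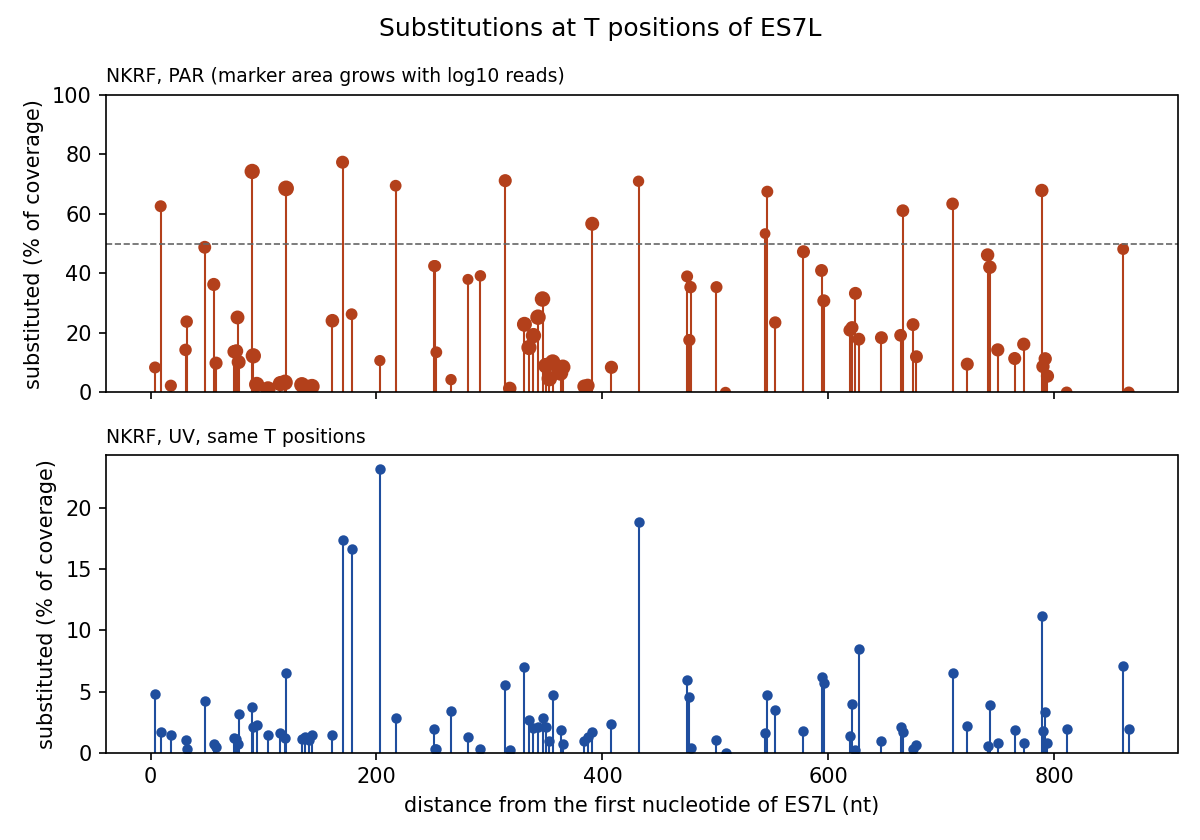
Percent of coverage substituted at each T of ES7L with at least 10 NKRF PAR reads, by distance from the first nucleotide, in NKRF PAR (top, dashed line at 50%) and NKRF UV (bottom). In NKRF PAR, 13 of the 85 T reach the line and the highest is at 77.4%, while in NKRF UV the same T stay at or below 23.2%.

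After UV, the intervals of the changed shares at T overlapped between NKRF and the tag. T was substituted in 2.58% of NKRF UV coverage (2.48 to 2.68) and 2.43% of tag UV coverage (1.98 to 2.94), and deleted in 0.383% (0.345 to 0.424) and 0.344% (0.184 to 0.564). Over all bases deletions were 0.152% (0.144 to 0.161) and 0.149% (0.113 to 0.195). At A, substitutions were lower with NKRF, at 2.82% (2.65 to 3.0) against 6.18% (5.20 to 7.28), and in the rest of 28S the shares were 2.80% and 5.16%. At C they were higher with NKRF, at 1.45% (1.42 to 1.49) against 1.09% (0.941 to 1.27). The share at C was also higher with NKRF in the rest of 28S. Of the 4897 substituted hits at C of ES7L in NKRF UV, 494 lay at position 1210, 427 at 850 and 235 at 840. In tag UV these positions had 0, 5 and 5 of 205 hits. Whether the difference at C in ES7L holds without these positions was not tested.

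Deletions at single positions were few. The T at position 512 had the highest share in both UV libraries, 8.17% (6.34 to 10.3) in NKRF UV and 12.2% (5.14 to 21.6) in tag UV. Next in NKRF UV were the T at 1063 with 4.57%, the G at 1138 with 3.82%, the G at 782 with 3.28% and the T at 980 with 3.20%. The G at 782, in the CCGT repeat, was deleted in 112 of 3416 NKRF UV reads (2.71 to 3.93%) and in 0 of 99 tag UV reads, which at 3 reads of the total allows a share of up to 3.03%, so a difference was not detectable at this depth. In tag UV the G at 739 had 11.6%, the T at 513 had 7.23%, the G at 1223 had 6.25% and the G at 1132 had 3.28%, on 51 to 70 reads, where NKRF UV had 0.80%, 0, 1.55% and 2.16%.

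The most substituted position of ES7L in NKRF UV was a C, at 1210 in the 3′ peak, singled out after its values were seen. It was changed in 537 of 1859 reads, 28.9% (26.8 to 31.0), and in 0 of 85 tag UV reads, which allows a share of up to 3.53%. The base it was changed to is not part of the values used here.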

How the data were processed

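Mapping used Bowtie2 2.2.4, per the submitters' processing notes. The reference, filters and handling of duplicates and multiple matches were not given in the sources used here. The deposited coverage signal of each 47S nucleotide, with substitutions and, for UV, deletions, was found from its values to be scaled to 1000000 reads and rounded by the authors. The deposited class score of each library was not used. In the tag PAR file the header is shifted: coverage was read from the column headed Substitutions, and no substitutions of tag PAR were used.

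ES7L was taken as 28S 436 to 1311. Read numbers are the sum of all rises of a profile over the value of 1 read. Intervals of shares are Clopper-Pearson, the limit at a count of 0 is 3 reads of the total, and those of ratios use the exact binomial split of reads; ratios of 2 ratios use the log scale. Windows were examined at a mean of at least 20 normalised hits in either library, and the same tiling was run over the 47S. Peaks were found with SciPy 1.17.1 (distance 25 nt, prominence 20% of the maximum), and pairing with RNAfold 2.7.2. Named were the 5 highest windows of each NKRF library, the 3 largest and smallest ratios in each mode, all peaks (tag peaks by number and range), the 8 T with the highest substituted share (at least 50 reads) and the 5 with the most hits, and the 5 highest deleted positions; 1 of these T is not reported here. In PAR, the largest ratios are given as bounds where the tag was at 0. The recovery of the value of 1 read and the window calls were tested on simulated data. Values just under 1 were recovered less securely, which touches the read numbers and intervals of NKRF UV but no ratio of coverage. Members, windows and lists were chosen with earlier results of these data known.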

Additional observations from a re-analysis of the deposited data

How the results depend on the processing

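With 1 library in each group, no library could be left out. Of 45 alternatives, 31 left a value within its counting interval, the share of windows or the number of T called within 1.5 times, or a correlation between 0.61 and 0.79. No log2 ratio of ES7L and no correlation changed sign. The counts of windows and T and the changed shares have no sign that could turn. In PAR, 1 window was called lower with a pseudocount of 10, and 1 with windows of 25 nt. The log2 ratio of ES7L (2.86 in UV, 4.67 in PAR) was 4.13 and 8.25 scaled to all reads, 1.20 and 3.46 as a share of 28S coverage, 1.16 and 3.08 as a share of coverage outside 18S, and 2.61 and 2.55 with a pseudocount of 10. Without the highest window it was 2.71 in UV. T substituted in at least 50% numbered 8 with a minimum of 50 reads, since 63 in place of 85 T were counted, and 33 at a limit of 25%. Without the 3 positions with the most changes, NKRF UV values were 0.122% for deletions, 2.21% for substitutions at T and 2.48% at A, and tag UV values were 0.127%, 2.05% and 5.6%. Depth limits the PAR pair most, with 10.1 tag reads in ES7L.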
